A study of Mus musculus with 4 samples.

Results

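The Notch pathway genes examined here were 10 genes taken by name from the 20065 genes measured: the receptors Notch1, Notch2 and Notch3, the ligands Dll1, Jag1 and Jag2, the nuclear effector Rbpj, and the target genes Hes1, Hey1 and Heyl. All 10 had values and all 10 passed the filter on low counts, which left 16212 genes for testing. The rule went by gene name and set no threshold on a measured value, but the names were chosen with earlier results of these data known.

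Notch receptors are single-pass membrane proteins that are activated by Delta and Jagged ligands on a neighbouring cell. Binding of the ligand lets proteases release the intracellular domain, which enters the nucleus, joins the DNA-binding protein RBPJ and turns on genes such as the Hes and Hey repressors. In skeletal muscle, Notch signalling is known for keeping the stem cells of muscle fibres (MuSC, or satellite cells) quiescent and undifferentiated, and RBPJ is needed for their maintenance.

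RNA was sequenced from cultured MuSC of adult C57BL/6 mice, taken from muscles of the limbs and trunk. The control group (2 libraries) was Pax7CreERT2/Prmt5+/loxP and the Prmt5sKO group (2 libraries) was Pax7CreERT2/Prmt5loxP/loxP, and both were treated with tamoxifen (+TAM). Both groups thus carried the tamoxifen-inducible Cre recombinase driven from Pax7, the gene that marks MuSC, and the controls were heterozygous for the floxed allele, with 1 copy of Prmt5 open to recombination. The paper describes the sequenced MuSC as treated with hydroxytamoxifen, which it used to delete Prmt5 in culture. The comparison asks which transcripts differ when the arginine methyltransferase Prmt5 is lost from MuSC. The labels do not say whether the libraries of a group came from separate animals or cultures, so that p-values measure the spread between these libraries.

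The deposited values were group means, from which the whole counts of each library were recovered exactly. Since the columns carried no replicate numbers, the libraries are named by depth within their group, and wherever a pair of values is given for a group, that of its deeper library stands first. Total counts ranged from 13240754 to 20047430 per library. Values for Prmt5, the targeted gene, were 2273 and 2906 normalized counts in control and 244 and 202 in Prmt5sKO, so the deletion matched the labels. Normalized counts are counts scaled for library size and composition by the trimmed mean of M-values (TMM). Libraries within a group stood apart in other ways. Xist, the RNA of the inactive X chromosome, was at 8668 and 23.3 normalized counts in control and at 8.15 and 5655 in Prmt5sKO. The summed level of 4 Y-linked genes ran the other way, at 1.13, 2426, 3260 and 0 in the same order. The libraries of a group thus differed in sex pattern and cannot stem from the same animal or culture. The spread within a group includes this difference. Transcripts of 18 muscle differentiation markers summed to 65223 and 108185 normalized counts in control and to 62441 and 495879 in Prmt5sKO. A large part of these sums was Ttn, at 39149 and 90033 in control and at 28428 and 171011 in Prmt5sKO. Both Prmt5sKO libraries lay above both controls for 12 of the 18 markers and below both for 0, and 6 overlapped. Of all genes tested, 25.2% lay above and 23.6% below. Myog, the regulator of myocyte differentiation, was at 1436 and 1189 in control and at 3707 and 19508 in Prmt5sKO. Of the MuSC-defining genes, Pax7 was present at 2570 to 3664 normalized counts in all 4 libraries and Myod1, a myoblast regulator, at 12152 to 15548. Fewer cells of a type and less RNA per cell cannot be told apart in such bulk samples.

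In the limma-voom fit over 16212 genes with Benjamini-Hochberg adjustment, no gene reached an adjusted p of 0.05 (0.0% of genes, smallest value 0.193), and accordingly none of the 10 Notch pathway genes did. The smallest value was that of Prmt5, at a log2 fold change of -3.52 (limma-voom p 1.19e-05), so the fit did not call even the deleted gene. The paper tested these libraries with DESeq2 and did report genes at a false discovery rate under 0.05. Without adjustment, 2101 genes (13.0%) had a limma-voom p under 0.05, 6.01% with higher and 6.95% with lower values in Prmt5sKO. Of the Notch pathway genes, 3 of 10 were below that threshold with higher values in Prmt5sKO (Notch3, Dll1 and Jag1) and 0 with lower values. Both Prmt5sKO libraries lay above both control libraries for 6 of 10 members, against 25.2% of all genes tested, and below both for 0 of 10, against 23.6%. The remaining 4 members had overlapping groups. The median log2 fold change of Prmt5sKO over control was 0.65 for the members and 0.02 for all genes tested. An exact two-sided permutation test of a single gene over 2 and 2 libraries cannot go below p = 0.333.

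**Figure D1:**
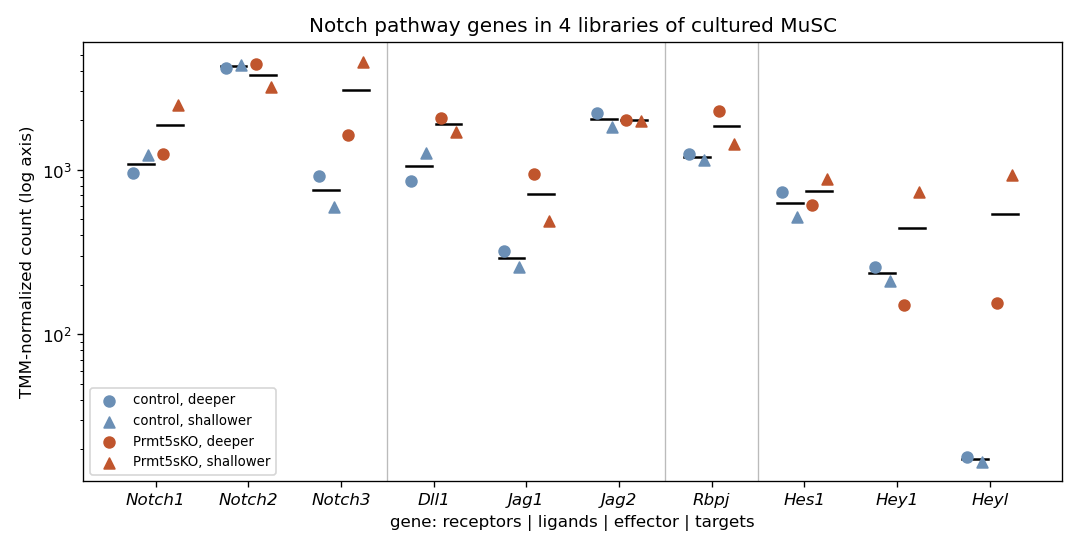
Normalized counts (log axis) of the 10 Notch pathway genes in each of the 4 libraries. Circles are the deeper and triangles the shallower library of each group, blue is control, orange is Prmt5sKO, and bars are means of 2 libraries. The Prmt5sKO libraries sit above both controls for Notch1, Notch3, Dll1, Jag1, Rbpj and Heyl, and the interval between the 2 Prmt5sKO libraries is wide for Notch3, Hey1 and Heyl.

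Among the receptors, Notch3 differed most between the groups. Notch3 (ENSMUSG00000038146, chr17:32120820-32166852 on the minus strand of GRCm38) encodes a receptor best known from vascular smooth muscle and pericytes that is also present in satellite cells. It was at 915 and 595 normalized counts in control and at 1626 and 4495 in Prmt5sKO. Every Prmt5sKO value was above every control value, and the shallower Prmt5sKO library stood far above the other 3. The group means were 755 ± 226 and 3061 ± 2029 (SD, n = 2 each). The log2 fold change was 1.87 (SE 0.52, 95% interval 0.60 to 3.13). In limma-voom this gave an unadjusted p of 0.011 and an adjusted p of 0.280. When each library was left out in turn, the log2 fold changes of Notch3 were 1.13 to 2.60, in fits with a single library in 1 group.

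The stretch directly upstream of Notch3 is shown because it belongs to the member with the lowest p, and because no exon is annotated in it. It covers the 250 bases before the RefSeq start (chr17:32166891-32167140, minus strand, GRCm38.p6). It holds no match to TGGGAA, the core of the RBPJ binding motif, nor to CANNTG, the E-box bound by Myod1 and related factors, on either strand.
Notch3: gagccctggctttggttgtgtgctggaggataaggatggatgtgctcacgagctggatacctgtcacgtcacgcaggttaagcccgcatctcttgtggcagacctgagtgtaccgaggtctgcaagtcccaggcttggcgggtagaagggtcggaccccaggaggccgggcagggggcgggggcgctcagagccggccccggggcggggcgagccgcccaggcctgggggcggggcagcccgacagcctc

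Notch1 (ENSMUSG00000026923, chr2:26457903-26516663, minus strand), a broadly expressed receptor, was at 950 and 1226 normalized counts in control and at 1251 and 2469 in Prmt5sKO. The deeper Prmt5sKO library lay just above the higher control, so that the groups did not overlap but nearly touched. The log2 fold change was 0.71 (SE 0.36) with a limma-voom p of 0.099 (adjusted p 0.449), and it was 0.22 when the shallower Prmt5sKO library was left out. Notch2 (ENSMUSG00000027878, chr3:98013527-98150361, plus strand), the receptor with the highest level in the controls, was at 4182 and 4319 in control and at 4377 and 3167 in Prmt5sKO. The groups overlapped, and only the shallower Prmt5sKO library was below the controls. Its log2 fold change was -0.19 (SE 0.23, 95% interval -0.76 to 0.38, limma-voom adjusted p 0.734).

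The receptors also differed in their make-up. Levels per length are reads per kilobase of exon at a common depth (RPKM), with all annotated exons of a gene joined as its length. Comparison between genes is approximate, since the transcripts present need not hold every annotated exon. On this scale Notch2 made up 68.3% and 71.5% of the summed receptor level in control and 58.4% and 28.7% in Prmt5sKO. The share of Notch3 was 19.9% and 13.1% in control against 28.9% and 54.3% in Prmt5sKO, and it was the leading receptor in the shallower Prmt5sKO library. Notch1 stayed between 11.8% and 17.0% in all 4 libraries. The summed receptor level per length was 35.2 and 34.7 in control and 43.1 and 63.4 in Prmt5sKO. These shares are descriptions of single libraries, with no test.

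Smooth muscle and pericyte markers, a cell type that also expresses Notch3, were measured beside it. A list of 7 such genes without Notch3 (6 of them in the table) summed to 3217 and 1791 normalized counts in control and to 4897 and 6861 in Prmt5sKO. Of the 5 tested, Rgs5 and Pdgfrb had an unadjusted p under 0.05, both with higher values in Prmt5sKO. Rgs5, a pericyte signalling regulator, was at 1774 and 128 in control and at 2367 and 4163 in Prmt5sKO. Myh11, the defining myosin of smooth muscle, was at 6.67 to 10.2 normalized counts in all 4 libraries. The part of these cells in the Notch3 values was not tested.

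Ligands Dll1 and Jag1 had higher values in Prmt5sKO, and Jag2 did not. Dll1 (ENSMUSG00000014773, chr17:15367354-15376872, minus strand), the Delta-like ligand of myogenic cells, was at 850 and 1267 normalized counts in control and at 2071 and 1707 in Prmt5sKO. The groups did not overlap, with means of 1058 ± 295 and 1889 ± 258 (SD, n = 2 each). The log2 fold change was 0.86 (SE 0.27), with a limma-voom p of 0.018 and an adjusted p of 0.307. Without the deeper control library it was 0.55 with an unadjusted limma-voom p of 0.166.

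Jag1 (ENSMUSG00000027276, chr2:137081456-137116644, minus strand), a Jagged ligand and itself a known Notch target in several tissues, was at 322 and 258 in control and at 944 and 490 in Prmt5sKO. Here the deeper Prmt5sKO library was the high one, unlike for Notch3. The log2 fold change was 1.25 (SE 0.41), with a limma-voom p of 0.022 and an adjusted p of 0.323. The unadjusted limma-voom p was 0.056 without the deeper control library and 0.093 without the shallower one, with log2 fold changes of 1.40 and 1.10. Jag2 (ENSMUSG00000002799, chr12:112907819-112929776, minus strand), the other Jagged ligand, was at 2222 and 1820 in control and at 2001 and 1985 in Prmt5sKO, both of which lay between the controls. Its log2 fold change was -0.01 with a 95% interval of -0.52 to 0.49 (limma-voom adjusted p 0.983), and its sign turned under library-size scaling, at 0.093.

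The summed ligand level per length was 35.7 and 37.6 in control and 58.3 and 47.9 in Prmt5sKO. Of this sum Jag2 took 55.4% and 43.1% in the controls and 30.6% and 36.8% in Prmt5sKO, while Dll1 took 35.0% and 49.6% against 52.2% and 52.3%. Jag1 was the least abundant ligand throughout, at 7.31% to 17.2%. Dll1 was therefore the leading ligand in 3 of the 4 libraries, and Jag2 led in the deeper control library.

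**Figure D2:**
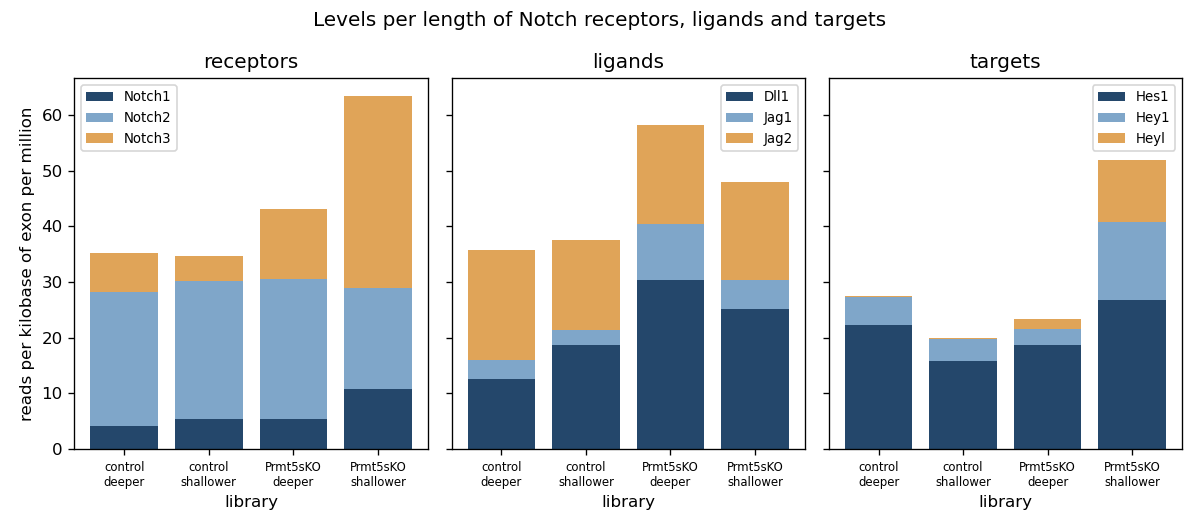
Levels per length (RPKM) of the receptors, ligands and targets in each library, stacked so that the bar height is the family sum, from 1 library each. The Notch3 part of the receptor bar grows from 19.9% and 13.1% in the controls to 28.9% and 54.3% in Prmt5sKO, and Heyl is visible among the targets only in the Prmt5sKO libraries.

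Rbpj (ENSMUSG00000039191, chr5:53466152-53657362, plus strand) encodes the protein through which all Notch receptors act on DNA. It was at 1246 and 1153 normalized counts in control and at 2265 and 1443 in Prmt5sKO. The groups did not overlap, and the deeper Prmt5sKO library was the high one, as for Jag1 and Dll1. The log2 fold change was 0.59 (SE 0.27, 95% interval -0.07 to 1.26) with a limma-voom p of 0.073 and an adjusted p of 0.413. Without the shallower Prmt5sKO library it was 0.92, and without the deeper one 0.27, each from a single Prmt5sKO library.

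Upstream sequence from RefSeq (GRCm38.p6) was at hand for 7 of the 10 members, in 9 windows that include the 250 bases before the start. Matches to TGGGAA lay upstream of Rbpj and of no other member matched, and the exon-free part of its upstream window is shown for that reason (chr5:53590096-53590213, plus strand, 118 bases). Capitals mark an E-box of the form CANNTG 212 bases before the start and the TGGGAA core 149 bases before it.
Rbpj: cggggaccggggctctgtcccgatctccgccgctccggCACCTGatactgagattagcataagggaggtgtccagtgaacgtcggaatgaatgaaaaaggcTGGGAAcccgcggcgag

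Further single matches lay outside the longest exon-free stretch of their windows, and both Dll1 windows are covered by annotated exons throughout. Some of these matches are shown with 12 bases on each side and in capitals. Shown for Rbpj is the second RBPJ core, on the minus strand 65 bases before the same start (chr5:53590269-53590298). For Jag1 it is the only E-box of its window, 82 bases before its start (chr2:137116585-137116614). For Dll1 it is the pair of E-boxes nearest the start of the window chr17:15376933-15377182, 155 and 132 bases before it (chr17:15377070-15377099 and chr17:15377047-15377076). Not shown are an E-box of Rbpj, 124 bases before the same start, and E-boxes of Dll1. The latter lie 229 bases before that Dll1 start and 220 bases before the start of the other Dll1 window.
Rbpj, minus-strand core: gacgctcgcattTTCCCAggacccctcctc
Jag1, E-box: ccgcgtttcatgCAGCTGatctgaaaggga
Dll1, first E-box: ttgtgcagagagCAGGTGctgtctgcatta
Dll1, second E-box: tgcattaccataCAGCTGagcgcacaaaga

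TGGGAA, read on both strands, occurs in 21.6% and CANNTG in 66.2% of the 250-base upstream parts of the 32851 promoter windows in the same table, so either match is common. The windows of Notch1, Notch2, Notch3 and Jag2 held neither motif. The letters say nothing of binding, which was not measured here.

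Among the target genes, Heyl had the largest difference of all 10 members and Hes1 one of the smallest. Heyl (ENSMUSG00000032744, chr4:123233556-123249875, plus strand), a Hairy-related repressor, was low in the controls, with 16 and 13 counts, or 18.1 and 16.9 normalized counts. It was at 154 and 924 normalized counts in Prmt5sKO (208 and 919 counts). The groups were far apart, and so were the Prmt5sKO libraries, which differed 6.00-fold from each other. The mean was 30.9-fold that of the controls, and the log2 fold change 4.28 (SE 1.83, 95% interval -0.18 to 8.75) with a limma-voom p of 0.057 and an adjusted p of 0.392. Against the control mean the Prmt5sKO libraries were 8.82-fold and 52.9-fold higher.

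Hey1 (ENSMUSG00000040289, chr3:8663359-8667256, minus strand), a related repressor, was at 258 and 211 normalized counts in control and at 150 and 733 in Prmt5sKO. The Prmt5sKO libraries lay on either side of the controls. The log2 fold change of 0.40 (SE 0.79, limma-voom adjusted p 0.843) rested on the shallower Prmt5sKO library, without which it was -0.65. Hes1 (ENSMUSG00000022528, chr16:30064384-30067796, plus strand), the most widely used Notch target, was at 735 and 519 in control and at 614 and 880 in Prmt5sKO. The groups overlapped, and the log2 fold change was 0.23 with a 95% interval of -0.49 to 0.96 (limma-voom adjusted p 0.748), or -0.02 without the shallower Prmt5sKO library. Per length, Hes1 nevertheless remained the most abundant of these targets, at 78.9% to 81.4% of their sum in control and 79.9% and 51.6% in Prmt5sKO. The share of Heyl was 0.798% and 1.02% in the controls and 7.98% and 21.6% in Prmt5sKO.

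**Figure D3:**
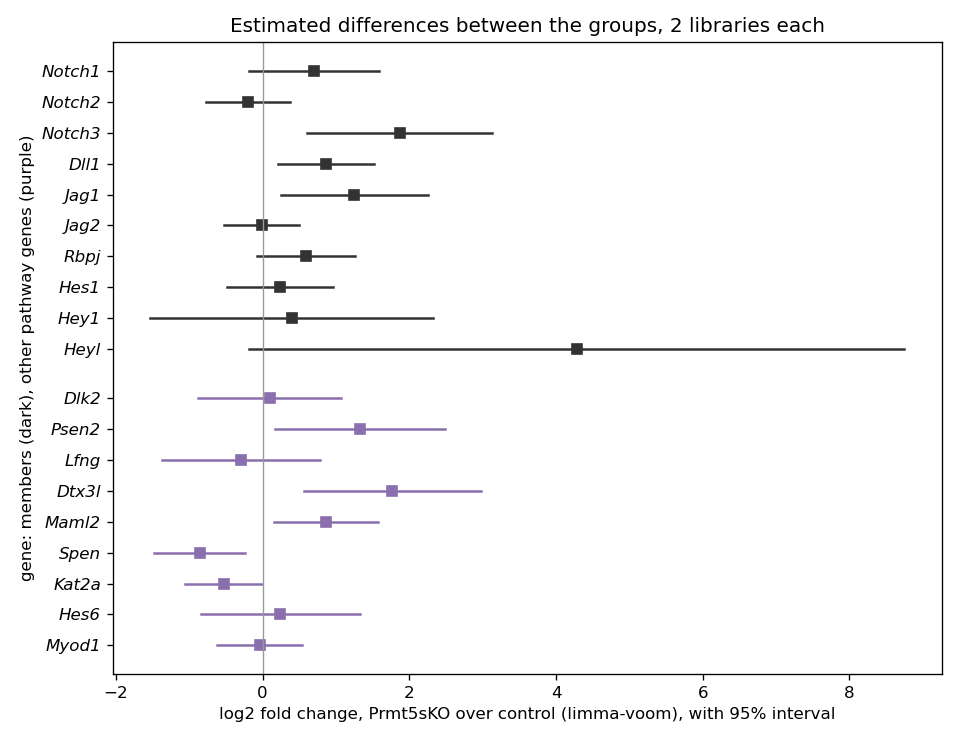
Log2 fold changes of Prmt5sKO over control from limma-voom with 95% intervals (2 libraries per group), for the 10 members (dark) and 9 other Notch pathway genes (purple). The intervals of the members Notch3, Dll1 and Jag1, and of Psen2, Dtx3l and Maml2 among the other genes, lie above 0. That of Heyl is the widest, and those of Spen and Kat2a lie below 0.

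In the order of levels per length, the controls were led by Notch2 at 24.4 ± 0.554 RPKM (SD, n = 2), which exceeded the next gene beyond the spread. Hes1 (19.1), Jag2 (18.0) and Dll1 (15.5) followed, and neighbours in this group overlapped. A lower group of Rbpj (5.83), Notch3 (5.79), Notch1 (4.74) and Hey1 (4.45) again had overlapping neighbours. Jag1 (3.09) and Heyl (0.212) closed the order, each clear of its neighbour. In Prmt5sKO the order began with Dll1 (27.7), Notch3 (23.5), Hes1 (22.7) and Notch2 (21.7), whose neighbours overlapped, followed by Jag2 (17.7). Rbpj (9.01), Hey1 (8.38), Notch1 (8.10), Jag1 (7.63) and Heyl (6.54) came last, again with overlapping neighbours. By these means the ratio of the highest to the lowest member was smaller in Prmt5sKO, but the means join unlike libraries. In the deeper Prmt5sKO library Dll1 was at 30.4 and Heyl at 1.87 RPKM. In the shallower one Notch3 was at 34.4 and Jag1 at 5.21.

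Members did not follow 1 pattern within the Prmt5sKO group. The shallower library had higher normalized counts than the deeper one for 5 of 10 members, namely Notch1, Notch3, Hes1, Hey1 and Heyl, by 1.43-fold to 6.00-fold. For the other 5, Notch2, Dll1, Jag1, Jag2 and Rbpj, the deeper library was higher, by 1.01-fold to 1.93-fold. The muscle differentiation markers were higher in the shallower library for 18 of 18 genes. Between these libraries the median log2 difference was 3.69 for the markers, 0.25 for the members and -0.02 for all genes tested. The part of differentiating cells in the values of the members was not tested. Without the shallower library, Notch3, Dll1, Jag1, Rbpj and Heyl had an unadjusted limma-voom p under 0.05, at log2 fold changes of 1.13, 1.00, 1.70, 0.92 and 3.09, against 16.2% of the genes tested in that fit. No member was called after adjustment there, and the smallest adjusted p of a member was 0.062, for Jag1. Without the deeper library 3 of 10 members were called (Notch3, Hey1 and Heyl), against 3.07% of the genes tested in that fit.

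**Figure D4:**
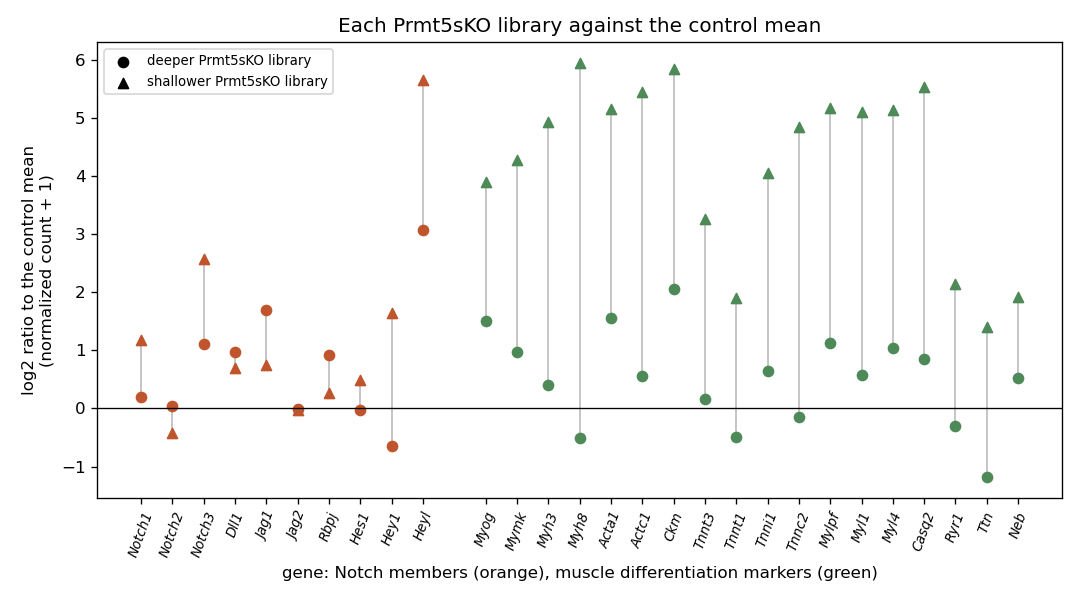
Log2 ratio of each Prmt5sKO library to the control mean (normalized count + 1), for the 10 members (orange) and 18 muscle differentiation markers (green). Circles are the deeper and triangles the shallower library. The triangles of all 18 markers lie above their circles, whereas the members divide, 5 with the triangle and 5 with the circle on top.

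Each group held 1 library with high Xist and 1 with Y-linked transcripts, so the groups could also be compared within such pairs, with 1 library per group in each. Values were higher in Prmt5sKO in both pairs for 7 of 10 members, lower in both for 0, and of differing direction for 3 (Notch2, Jag2 and Hey1). Of all genes tested, 33.5% were higher and 31.8% lower in both pairs. Notch3 was 4.91-fold higher in the pair with high Xist and 2.73-fold in the other, and Heyl 51.1-fold and 9.14-fold. Dll1 was 2.01-fold and 1.63-fold higher, Jag1 1.52-fold and 3.66-fold, and Rbpj 1.16-fold and 1.96-fold. The difference of Notch1 lay in the pair with high Xist, at 2.60-fold against 1.02-fold. Hes1 was 1.20-fold and 1.18-fold higher. When limma-voom was fitted with these pairs as a block, which leaves 1 residual degree of freedom, 2.13% of all genes were called at an adjusted p of 0.05, and 2 of 10 members were, Notch3 (log2 fold change 1.91, adjusted p 0.021) and Heyl (4.78, adjusted p 0.025). Dll1 and Jag1 had adjusted p-values of 0.088 and 0.103 in that fit. With the deeper libraries paired instead, 5 of 10 members and 11.6% of all genes had an unadjusted p under 0.05, no member was called, and Notch3 and Heyl had adjusted p-values of 0.334 and 0.264.

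The wider pathway was described from lists of 78 other genes, of which 71 were measured and 67 tested. An unadjusted limma-voom p under 0.05 was found for 3 genes with higher and 3 with lower values in Prmt5sKO, and 61 had neither, against 6.01% and 6.95% of all genes tested. The median log2 fold change was 0.07. Groups did not overlap for 18 genes with higher and 12 with lower values in Prmt5sKO, where 25.2% and 23.6% of all genes did so.

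Nuclear cofactors held 4 of these 6 genes, 3 of which are described here. Spen, a corepressor that binds RBPJ, was at 2362 and 3494 normalized counts in control and at 1672 and 1505 in Prmt5sKO (log2 fold change -0.86, limma-voom p 0.015, adjusted p 0.298). Kat2a, an acetyltransferase of the coactivator complex, was at 2522 and 2258 against 1835 and 1483 (-0.53, limma-voom p 0.048, adjusted p 0.382). Maml2, a coactivator of the Mastermind family, was at 216 and 193 in the controls and 342 and 416 in Prmt5sKO (0.87, limma-voom p 0.025, adjusted p 0.329). In each of these genes the groups did not overlap, and the libraries within Prmt5sKO lay closer together than for Notch3 or Heyl. The other 16 of 20 tested cofactors had a p above 0.05, and the median of the list was -0.20.

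Of 10 tested genes for receptor cleavage, Psen2, a catalytic subunit of gamma-secretase, was the only one with an unadjusted p under 0.05. It was at 150 and 96.0 normalized counts in control and at 234 and 422 in Prmt5sKO (log2 fold change 1.33, limma-voom p 0.031, adjusted p 0.343). Of 16 genes for endocytosis and turnover, this was Dtx3l, a ubiquitin ligase of the Deltex family, at 44.1 and 44.1 against 182 and 121 (1.77, limma-voom p 0.011, adjusted p 0.282).

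None of the tested genes in the remaining lists had an unadjusted p under 0.05. These were 4 other receptors and ligands, 4 glycosyltransferases of the receptors, 4 other Hes and Hey family genes and 9 satellite cell genes linked to Notch and RBPJ. The genes with the highest mean level per length over the 4 libraries in these lists were Dlk2, a non-canonical ligand (log2 fold change 0.10), Lfng, which modifies the receptors with sugars (-0.29), Hes6, a Hes relative that is active in myoblasts (0.24), and Myod1 (-0.04). Lfng was at 626 and 550 normalized counts in control and at 316 and 777 in Prmt5sKO, and Hes6 at 5880 and 5072 against 3972 and 10408. For both, as for Hey1, the Prmt5sKO libraries lay on either side of the controls.

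Markers of 4 further cell types were low. The summed normalized counts of the endothelial list, a cell type with strong Notch activity, were 138 and 206 in the controls and 107 and 73.4 in Prmt5sKO, with its defining gene Cdh5 at 0 to 14.3. Of these 8 genes 6 were measured. Sums were 242 to 608 for the haematopoietic list (4 of 7 genes measured), 252 to 608 for the fibro-adipogenic list and 105 to 143 for the Schwann cell list. These were small beside the myogenic list, at 69523 to 112921. Cd34 of the fibro-adipogenic list was at 220 and 24.6 in control and at 539 and 271 in Prmt5sKO. It was the only tested gene of that list with an unadjusted limma-voom p under 0.05 (p 0.043, adjusted p 0.369). The paper names CD34 among the positive surface markers used to sort MuSC.

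Genes annotated on the opposite strand overlap Notch1 (0610009E02Rik and Gm13568), Notch3 (Gm17276), Dll1 (A930024N18Rik) and Rbpj (Gm10441 and Gm40304). Whether counting used the strand is not given in the sources used here. Gm13568, Gm10441 and Gm40304 had no values. Those of the others were low, at 0 to 5.65 normalized counts for 0610009E02Rik, 4.45 to 48.3 for Gm17276 and 6.67 to 17.1 for A930024N18Rik.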

How the data were processed

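Total RNA of cultured, FACS-purified MuSC was depleted of ribosomal RNA and sequenced on an Ion Torrent Proton by the study. Reads were trimmed with Reaper, aligned to mm10 (GRCm38) with STAR 2.4.0a and normalized with DESeq2 1.62, per the submitters' processing notes. The deposited signal is the mean, over the 2 libraries of a group, of gene counts that the authors divided by size factors. Columns of the authors' own comparison (log2 fold change, its error and p-values) were not used.

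Each group mean was resolved into 2 whole counts from the step sizes of the libraries. This gave whole numbers for 100% of 20065 genes in both groups (largest relative residual 5.4e-15), with 1 solution per gene, and was tested on simulated data. Control libraries held 14436914 and 13240754 counts, and Prmt5sKO libraries 20047430 and 16190414. Libraries of a group differed beyond sampling noise (chi-square per gene 77.1 in control, 144 in Prmt5sKO).

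Counts were scaled by TMM (trims of 30% and 5%), genes whose normalized counts averaged under 5 were left out, and limma-voom (limma 3.58.1, R 4.3.3, Python 3.11.15) was fitted over 16212 genes, two-sided, with Benjamini-Hochberg adjustment at 0.05. The script was tested on simulated data. The deposited values were group means, and count models (edgeR and DESeq2) were not run on the counts recovered from them. Exon lengths and positions came from GENCODE M21 (GRCm38), which matched 19782 IDs, and promoters from RefSeq (GRCm38.p6). Intervals are 95%.

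The members and lists were chosen with earlier results of these data known. All 10 members are named, and of the other lists the genes with an unadjusted p under 0.05 (at most 3 per direction), or else the gene with the highest mean level per length. The values of 1 nuclear cofactor are not reported here. Alternatives were other scalings, filters and weights, a replicate block in either pairing, and leaving out each library.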

Additional observations from a re-analysis of the deposited data

How the results depend on the processing

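Under other scalings, filters on low values, weights and moderation, no gene was called at an adjusted p of 0.05. In these settings 3 to 5 of 10 Notch pathway genes had an unadjusted p under 0.05, as did 1906 to 2413 of all genes (13.0% in the main fit). Heyl joined the 3 under upper-quartile scaling (p 0.045), without a filter (0.033) and in limma-trend (0.0018), and 5 members were below it under library-size scaling, where the median of all genes lay at 0.13 and Jag2 turned to 0.093. The replicate block with the deeper libraries paired gave 5 members and 1884 of all genes (11.6%). The replicate block with crossed pairing, which joins the libraries alike in Xist, called 346 of 16212 genes (2.13%) and 2 members. There 3155 of the 16212 genes had an unadjusted p under 0.05, as did 5 of 10 members and 14 of 67 other pathway genes tested. The labels' replicate numbers could not be tied to the recovered libraries. Deviations of the libraries from their group means correlated at -0.29 across 11487 genes with the deeper libraries paired. The crossed value of 0.29 is the same correlation with its sign turned.

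Leaving out each library in turn gave 0 to 489 called genes (55 without the shallower Prmt5sKO library, 0 without either control library) and 658 to 2969 with an unadjusted p under 0.05, and 1 to 6 members and 1 to 13 other pathway genes below the latter. Between 0 and 3 members were called, the highest number (Notch3 at an adjusted p of 0.0048, Hey1 at 0.036 and Heyl at 0.0039) without the deeper Prmt5sKO library, where 489 of 15927 genes were called (3.07%) and the lone Prmt5sKO library was assumed to vary like the controls. Each of these fits leaves a single library in 1 group, so the spread comes from the other group alone. The median log2 fold change of the members stayed at 0.56 to 0.74. Log2 fold changes that changed sign were those of Notch2 (-0.42 to 0.04), Jag2 (-0.15 to 0.12), Hes1 (-0.02 to 0.50) and Hey1 (-0.65 to 1.64). Without the shallower Prmt5sKO library Notch2, Hes1 and Hey1 took the values 0.042, -0.017 and -0.65, and without the deeper control library Jag2 took 0.118. The causes were not tested. The values of Heyl in the controls rested on 16 and 13 counts.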

Other observations

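A further pair of pathway genes, chosen after their values were seen, stood out by library. Neurl1a, a ubiquitin ligase of the Neuralized family that acts on ligands, was at 159 and 224 normalized counts in control and at 425 and 2393 in Prmt5sKO, the deeper library first (log2 fold change 2.39, limma-voom p 0.056, adjusted p 0.391). Bhlhe40, a repressor of the wider Hes and Hey group, was at 181 and 172 in control and at 626 and 245 in Prmt5sKO (1.20, limma-voom p 0.074, adjusted p 0.414). As among the members, the high library was the shallower one for the former and the deeper one for the latter. Among the 9 tested satellite cell genes, log2 fold changes ran from -0.41 to 1.71, with Megf10, a receptor of satellite cells, at 8845 and 8999 in the controls and 14879 and 8696 in Prmt5sKO, and Myf5, a myogenic regulator, at 1630 and 1772 against 1305 and 1252 (limma-voom adjusted p 0.630 and 0.424).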
